A study of Bos taurus with 16 samples.

Results

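IGFBP3, IGFBP6, INSR and ASCL2 were followed over all probe sets that the platform annotation assigns to 1 of these symbols alone. This gave 9 probe sets out of 24016 that are not controls, and 4 genes out of the 9155 named by a probe set of their own: 2 probe sets for IGFBP3, 1 for IGFBP6, 5 for INSR and 1 for ASCL2. The study profiled 49 superovulated cows on bovine Affymetrix arrays. A cytobrush, which samples the surface cells of the uterine lining, was taken 2 h before insemination (day 0) and on day 7 just before the uterus was flushed for embryos. A cow was classed as having subclinical endometritis (SE) when polymorphonuclear cells were present in the brush and as healthy (HE) when none were counted, so the number of these cells defined the groups. Every array held a pool: day 7 endometrium of SE cows (3 pools) and of HE cows (2 pools analysed here), day 0 endometrium of SE cows (3 pools) and of HE cows (3 pools), and day 7 blastocysts of SE donors (3 pools of 10 embryos) and of HE donors (2 such pools analysed here, numbered 2 and 3 in their titles). All cows had been superovulated, so no group shows an unstimulated cycle. The labels do not tie pools to cows, so pools of both days may come from the same animals, and p-values measure only the spread between these pools.

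The insulin-like growth factors IGF1 and IGF2 act through the IGF1 receptor, and in body fluids they travel bound to a family of IGF binding proteins. IGFBP3 is the main carrier in blood, where it forms a complex with the acid-labile subunit, and IGFBP6 prefers IGF2 over IGF1. INSR encodes the insulin receptor, a tyrosine kinase that can also pair with the IGF1 receptor. ASCL2 is a basic helix-loop-helix transcription factor that pairs with E proteins; in mice it is imprinted and needed for the placenta, and in the intestine it is a Wnt target of stem cells. In the uterus, progesterone drives the change of endometrial gene expression that follows ovulation, and the secreted binding proteins are among the products that reach the embryo.

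Signals are the authors' GCRMA values on the log2 scale, on which a step of 1 is a doubling. Probe sets entered the tests if 2 or more arrays of that tissue had a signal above 4. In endometrium 6 of the 9 probe sets passed: both of IGFBP3, that of IGFBP6, that of ASCL2 and 2 of INSR. The other 3 INSR probe sets read 1.81 to 2.46 on all 11 endometrium arrays. The INSR probe sets passed through their day 7 arrays alone, and ASCL2 through its day 7 arrays and 1 array of day 0 SE, so a difference between days was built into their passing. Without the filter the same number, 6 of 9, was past the test in each day comparison. In a sample of mixed cells, fewer cells of a type and less RNA per cell cannot be told apart.

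The brush pools carried markers of several cell types. Of 7 epithelial markers 6 were above the filter, KRT8 being the exception, and their summed signal (log2 of the sum) was 13.9 to 14.1 on day 7 in SE, 14.1 to 14.1 on day 7 in HE, 15.1 to 15.5 on day 0 in SE and 15.1 to 15.3 on day 0 in HE. All 7 stromal fibroblast markers were above it, with sums of 11.2 to 13.1 and 11.1 to 13.0 on day 7 in SE and HE and of 11.9 to 13.4 and 11.1 to 12.8 on day 0. The 4 neutrophil markers on the array summed to 8.19 to 9.75 and 7.61 to 9.90 on day 7 in SE and HE and to 11.98 to 14.53 and 10.39 to 12.10 on day 0. Epithelial and neutrophil sums were thus lower on day 7 in both classes of cow. In SE so were the sums of the 3 ciliated cell markers on the array, 8.71 to 9.02 on day 7 against 9.19 to 10.60 on day 0. The epithelial markers did not all move alike. CDH1 averaged higher on day 7, at 10.57 against 9.95 on day 0 in SE and 11.05 against 9.57 in HE. CLDN3 averaged 9.22 on day 7 against 9.64 on day 0 in SE and 9.41 against 9.28 in HE. In HE the sums of the 5 lymphocyte markers were higher on day 7, 10.38 to 11.09 against 9.61 to 10.22. Of these markers LCK went the other way in HE, averaging 6.85 on day 7 against 7.83 on day 0. Of the 6 endothelial markers CLDN5 alone was above the filter, and on day 7 only: it averaged 5.78 on day 7 against 2.39 on day 0 in SE and 6.60 against 2.39 in HE, with no overlap, the direction of INSR and ASCL2. Of 5 smooth muscle markers 3 were above the filter. ACTA2 averaged 4.58 on day 7 against 7.28 on day 0 in SE and 4.25 against 6.79 in HE. Its days did not overlap, and its direction was that of IGFBP3 and IGFBP6. TAGLN and MYLK overlapped between the days. All 6 macrophage markers were above the filter on some arrays, with sums of 8.30 to 10.23 and 8.73 to 9.42 on day 7 in SE and HE. On day 0 these were 8.75 to 10.30 and 8.06 to 8.89. CD14 averaged 4.21 on day 7 against 8.20 on day 0 in SE and 4.99 against 7.39 in HE. Its days did not overlap, and its direction was that of IGFBP3 and IGFBP6. CD68, CSF1R, AIF1, C1QA and C1QB averaged higher on day 7 in both classes. The part of these markers in the day differences was not tested. The day 0 SE replicate 2 array had the lowest mean correlation with its own group in endometrium, 0.962 against 0.973 to 0.983 for the others.

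IGFBP3 and IGFBP6 transcripts were far lower on day 7 than on day 0, and INSR and ASCL2 transcripts were higher, in SE and in HE cows alike. All 6 tested probe sets passed limma's moderated test in both day comparisons, 3 higher and 3 lower. The background was high: 50.1% of all 13421 tested probe sets were called in SE (26% higher, 24.1% lower) and 45% in HE (21.8% higher, 23.2% lower). The day 7 pools lay wholly above the day 0 pools for 29.3% of all probe sets in SE and 32.2% in HE, and wholly below them for 28.6% and 36.1%. A call by itself was therefore common, and the sizes of the 6 differences are what is described below.

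**Figure D1:**
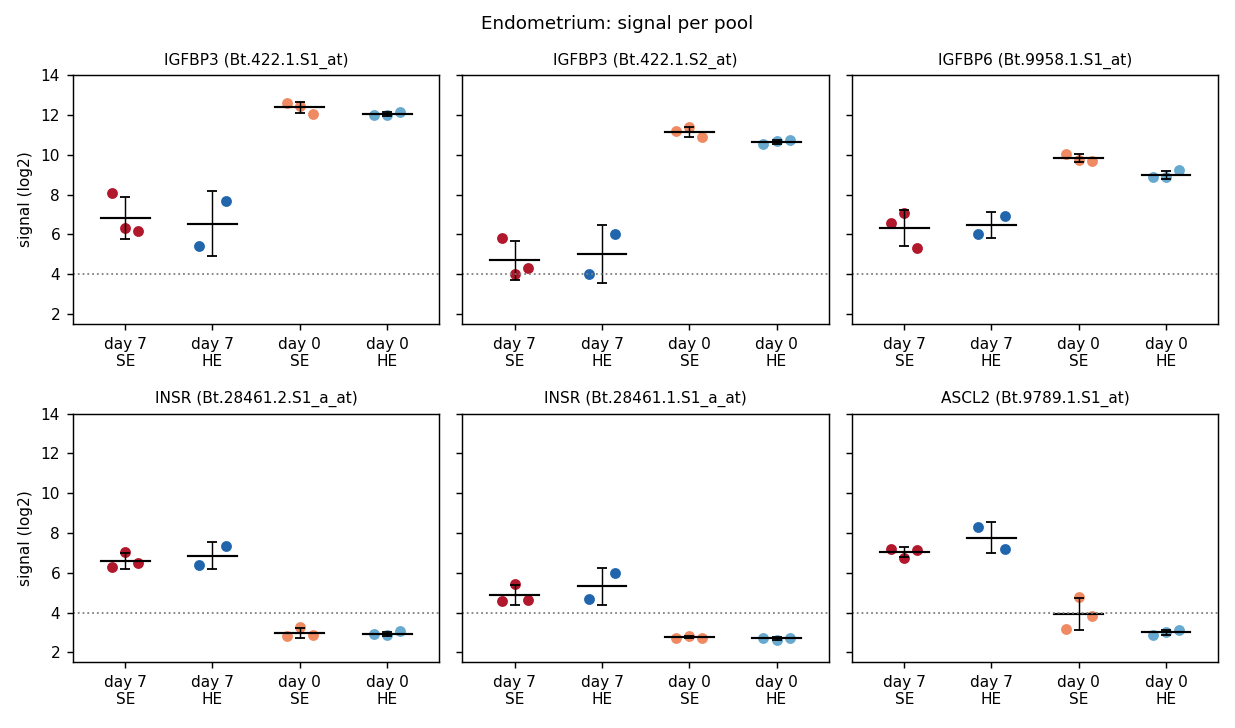
Signal (log2) of the 6 tested probe sets in each endometrium pool, with points for pools, a horizontal bar for the group mean, whiskers for the SD and a dotted line at the filter value of 4. For IGFBP3 and IGFBP6 each day 7 pool lies below each day 0 pool, for INSR and ASCL2 each day 7 pool lies above.

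IGFBP3, the principal serum carrier of IGFs, gave the largest falls of the 4 genes. The brighter of its probe sets gave 8.07, 6.30 and 6.18 in the day 7 SE pools and 5.40 and 7.70 in the day 7 HE pools. On day 0 the SE pools gave 12.62, 12.46 and 12.05 and the HE pools 11.99, 12.02 and 12.14. The days did not overlap in either class, and the 5 day 7 pools spread over a far wider range than the 6 day 0 pools. The day 7 over day 0 difference was -5.53 in SE (limma standard error 0.59, 95% interval -6.85 to -4.21, adjusted p = 3.84e-05), 46.2-fold lower, and -5.50 in HE (standard error 0.66, interval -6.98 to -4.02, adjusted p = 1.13e-04), 45.3-fold lower. Sorted from the largest fall among probe sets above the filter value in at least 1 pool of each day, it stood 19th of 12187 in SE and 15th of 12104 in HE.

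The dimmer IGFBP3 probe set gave the same picture from different probes. It read 5.82, 4.01 and 4.30 in the day 7 SE pools and 4.01 and 6.04 in the day 7 HE pools, against 11.17, 11.39 and 10.87 in the day 0 SE pools and 10.56, 10.68 and 10.73 in the day 0 HE pools. The 2 lowest day 7 values lay just above the filter value. Its difference was -6.44 in SE (limma standard error 0.54, adjusted p = 7.21e-06), 86.6-fold lower and the 6th largest fall in that order, and -5.64 in HE (standard error 0.60, adjusted p = 4.91e-05), 49.7-fold lower and the 12th.

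The day 7 pools with most IGFBP3 were SE replicate 1 and HE replicate 2, by both probe sets. These were also the pools of their groups with the highest stromal fibroblast sum: 13.07, 12.40 and 11.19 in the day 7 SE pools and 11.05 and 13.01 in the day 7 HE pools. The match was not particular to stroma. Smooth muscle, macrophage and lymphocyte sums peaked in the same pools. Lymphocyte sums were 12.27, 11.27 and 8.63 in SE and 10.38 and 11.09 in HE. Epithelial, neutrophil, endothelial and ciliated cell sums did not peak in both of these pools. Stromal sums ran from 11.1 to 13.1 on day 7 and from 11.1 to 13.4 on day 0. Single stromal markers moved in both directions. PDGFRA averaged 5.87 on day 7 against 4.21 on day 0 in SE and 5.42 against 3.74 in HE. DCN averaged 8.83 on day 7 against 9.96 on day 0 in SE and 8.53 against 9.30 in HE. The part of stromal or other cells in the IGFBP3 differences was not tested. With only 2 day 7 HE pools the size in HE rested on each: without replicate 2 the brighter probe set differed by -6.65 and the dimmer by -6.65, and without replicate 1 by -4.35 and -4.62. In SE, leaving out day 7 replicate 1 gave -6.14 and -6.99.

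IGFBP6, the binding protein with a preference for IGF2, also fell. Its probe set read 6.55, 7.07 and 5.30 in the day 7 SE pools and 6.01 and 6.92 in the day 7 HE pools, against 10.06, 9.73 and 9.71 in the day 0 SE pools and 8.87, 8.91 and 9.22 in the day 0 HE pools. Day 7 and day 0 values did not overlap in either class. The difference was -3.52 in SE (limma standard error 0.40, 95% interval -4.42 to -2.63, adjusted p = 5.74e-05), 11.5-fold lower and the 137th largest fall in the same order, and -2.54 in HE (standard error 0.45, interval -3.54 to -1.54, adjusted p = 0.00125), 5.81-fold lower and the 304th.

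**Figure D2:**
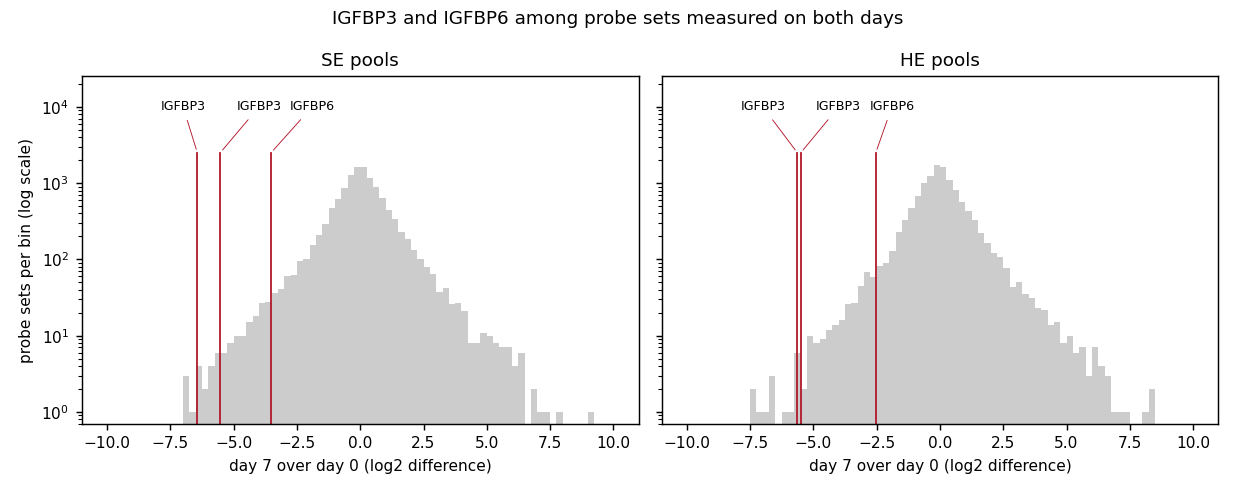
Histograms of the day 7 over day 0 log2 difference of the endometrium probe sets above the filter value on both days, 12187 in SE (left) and 12104 in HE (right), counts on a log scale, with lines at the IGFBP3 and IGFBP6 probe sets. The IGFBP3 lines lie in the outer left tail of both panels and IGFBP6 nearer the centre.

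INSR, the insulin receptor, was below the filter value in every day 0 pool and above it in every day 7 pool by the 2 tested probe sets. The brighter one read 6.28, 7.06 and 6.47 in the day 7 SE pools and 6.38 and 7.33 in the day 7 HE pools, against 2.82, 3.27 and 2.86 in the day 0 SE pools and 2.91, 2.86 and 3.06 in the day 0 HE pools. Its difference was 3.62 in SE (limma standard error 0.27, 95% interval 3.02 to 4.22, adjusted p = 3.52e-06) and 3.91 in HE (standard error 0.30, interval 3.24 to 4.59, adjusted p = 6.72e-06). Since the day 0 values lay below the filter value, the fold is given as a bound. Set against the filter value on day 0, the rise was at least 6.08-fold in SE and at least 7.24-fold in HE.

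The second INSR probe set was dimmer. It read 4.58, 5.45 and 4.63 in the day 7 SE pools and 4.68 and 5.98 in the day 7 HE pools, against 2.72, 2.81 and 2.73 in the day 0 SE pools and 2.73, 2.62 and 2.74 in the day 0 HE pools. The differences were 2.13 in SE (limma standard error 0.32, adjusted p = 3.42e-04), at least 1.85-fold against the filter value, and 2.63 in HE (standard error 0.36, adjusted p = 2.35e-04), at least 2.51-fold. The HE value was 3.28 without day 7 replicate 1 and 1.98 without day 7 replicate 2. The 3 INSR probe sets that were never above the filter gave no measured level on either day.

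ASCL2, the transcription factor, also rose. It read 7.20, 6.73 and 7.13 in the day 7 SE pools and 8.30 and 7.21 in the day 7 HE pools, against 3.19, 4.79 and 3.82 in the day 0 SE pools and 2.87, 3.04 and 3.13 in the day 0 HE pools. Day 7 and day 0 did not overlap, and day 0 SE replicate 2 was the single day 0 pool above the filter value. The difference was 3.09 in SE (limma standard error 0.39, 95% interval 2.23 to 3.95, adjusted p = 1.07e-04) and 4.74 in HE (standard error 0.43, interval 3.78 to 5.70, adjusted p = 1.85e-05). Against the filter value where day 0 arrays lay below it, the rise was at least 6.77-fold in SE and at least 13.5-fold in HE.

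The pools of day 7 did not order the 4 genes in the same way. In HE, replicate 2 was above replicate 1 for IGFBP3, IGFBP6 and INSR and below it for ASCL2. In SE, replicate 2 was highest for IGFBP6 and INSR and lowest for ASCL2, while IGFBP3 peaked in replicate 1. The brighter IGFBP3 probe set averaged 6.85 ± 1.06 in day 7 SE, 6.55 ± 1.63 in day 7 HE, 12.38 ± 0.29 in day 0 SE and 12.05 ± 0.08 in day 0 HE (SD, n = 3, but 2 for day 7 HE, here and below). IGFBP6 averaged 6.31 ± 0.91 in day 7 SE, 6.46 ± 0.65 in day 7 HE, 9.83 ± 0.20 in day 0 SE and 9.0 ± 0.20 in day 0 HE. Both binding proteins were therefore highest in day 0 SE and next in day 0 HE. The brighter INSR probe set averaged 6.60 ± 0.41 in day 7 SE, 6.86 ± 0.67 in day 7 HE, 2.98 ± 0.25 in day 0 SE and 2.94 ± 0.10 in day 0 HE. ASCL2 averaged 7.02 ± 0.25 in day 7 SE, 7.75 ± 0.77 in day 7 HE, 3.93 ± 0.81 in day 0 SE and 3.01 ± 0.13 in day 0 HE. Both averaged highest in day 7 HE and next in day 7 SE, with overlapping day 7 pools for INSR. ASCL2 averaged lowest in day 0 HE, but both of its day 0 means lay below the filter value. The INSR pools of day 0 were all below the filter value and overlapped, so they are not ordered. The step between the days exceeded the spread for each gene, and no step between SE and HE of a day passed the test.

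SE and HE were compared within each day to ask what the inflammation class changed. On day 0, 0 of the 6 probe sets passed limma's test (1, ASCL2, had an unadjusted p under 0.05), where 0.0224% of all probe sets did (3 of 13421, 0.0149% higher and 0.00745% lower, with 1020 at an unadjusted p under 0.05). The SE pools nonetheless lay wholly above the HE pools for 3 of the 6, a pattern that 3.58% of all probe sets showed. These were IGFBP6, with a gap of 0.485 between the lowest SE and the highest HE pool, the dimmer IGFBP3 probe set, with a gap of 0.144, and ASCL2, with a gap of 0.0621. The ASCL2 gap lay between 3.19 in SE and 3.13 in HE. Both values were below the filter value, so the ASCL2 pools are not ordered by it. The differences were 0.83 for IGFBP6 (limma standard error 0.40, 95% interval -0.06 to 1.73, adjusted p = 0.672), 0.49 for that IGFBP3 probe set (interval -0.71 to 1.68, adjusted p = 0.855) and 0.92 for ASCL2 (standard error 0.39, interval 0.06 to 1.78, adjusted p = 0.638). The standard errors use 1 spread shared by all 4 endometrium groups. For IGFBP6 the SD was 0.91 and 0.65 in day 7 SE and HE and 0.20 and 0.20 in day 0 SE and HE. IGFBP3 also varied more on day 7, so the day 0 intervals of both genes carry day 7 spread as well. The ASCL2 value compares means of 3.93 and 3.01, both below the filter value, and was 0.49 without day 0 SE replicate 2. The brighter IGFBP3 probe set differed by 0.33 (interval -0.99 to 1.65, adjusted p = 0.924) with overlapping pools, and the INSR probe sets by 0.04 and 0.05, all of their pools being below the filter value. Neutrophil marker sums were 11.98, 12.88 and 14.53 in the day 0 SE pools and 12.10, 11.06 and 10.39 in the day 0 HE pools, and stromal sums 13.4, 11.9 and 12.6 against 11.8, 11.1 and 12.8. These sums overlapped. Those of lymphocyte markers were 11.18, 11.51 and 12.01 in the SE pools against 9.61, 9.84 and 10.22 in the HE pools. Those of ciliated cell markers were 9.32, 10.60 and 9.19 against 7.83, 8.79 and 8.71. Both lay wholly higher in SE, as did IGFBP6, the dimmer IGFBP3 probe set and, with a gap below the filter value, ASCL2. Among the lymphocyte markers JCHAIN alone did so, averaging 11.37 in SE against 9.19 in HE, and it dominated the sum. The others overlapped: LCK averaged 7.63 against 7.83, CD2 5.10 against 5.17, CD3E 5.15 against 5.07 and CD3D 6.07 against 5.31. Macrophage sums overlapped, at 8.75, 10.30 and 8.99 in SE against 8.06, 8.89 and 8.40 in HE. Among the macrophage markers AIF1, C1QA and C1QB lay wholly higher in SE, while CD14, CD68 and CSF1R overlapped. The part of these markers in the small day 0 differences was not tested.

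On day 7, 0 of the 6 probe sets passed limma's test and 0 had an unadjusted p under 0.05. The share called among all probe sets was 0% (0 of 13421, with 477 at an unadjusted p under 0.05). Only ASCL2 had pools that did not overlap, with SE below HE by a gap of 0.0108, a pattern shown by 8.33% of probe sets. Its difference was -0.73 (limma standard error 0.43, 95% interval -1.69 to 0.23, adjusted p = 1.00), and it was -0.18 without day 7 HE replicate 1 and -1.28 without day 7 HE replicate 2. IGFBP3 differed by 0.30 (interval -1.18 to 1.78) and -0.31 (interval -1.65 to 1.02) by its brighter and dimmer probe sets. IGFBP6 differed by -0.15 (interval -1.15 to 0.85), and INSR by -0.25 (interval -0.93 to 0.42) and -0.44 (interval -1.23 to 0.35) by its brighter and dimmer probe sets. For IGFBP3 the intervals reached past 1 log2 unit in both directions, so that differences of that size were not detectable with these pools.

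**Figure D3:**
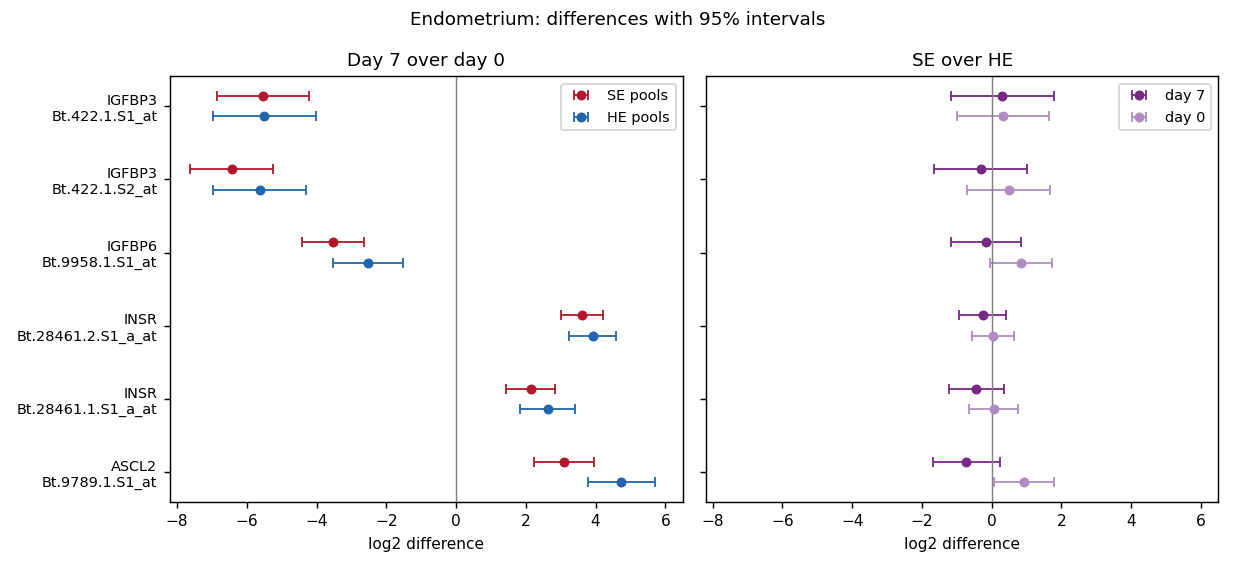
Log2 differences of the 6 probe sets with limma's 95% intervals: day 7 over day 0 in SE and HE pools (left) and SE over HE on day 7 and day 0 (right). All 12 day intervals lie clear of 0, while of the 12 SE over HE intervals only that of ASCL2 on day 0 does, without passing the test after adjustment.

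The test of whether the day difference itself differed between SE and HE called 0 of the 6 probe sets (1, ASCL2, had an unadjusted p under 0.05) and 0% of all (0 of 13421 by limma, with 526 at an unadjusted p under 0.05). ASCL2 had the value farthest from 0 among the 6: its day difference in SE minus that in HE was -1.65 (limma standard error 0.58, 95% interval -2.94 to -0.36, unadjusted p = 0.0174, adjusted p = 1.00). It combined a higher day 0 mean and a lower day 7 mean of the SE pools. On day 0, however, only 1 SE pool and 0 HE pools were above the filter value. The day 0 part of this value thus rests mostly on unmeasured levels. Set against the filter value, the ASCL2 day rises were at least 2.76 in SE and at least 3.75 in HE. Without day 7 HE replicate 1 the value for the difference of the ASCL2 day changes was -1.10, and without day 7 HE replicate 2 it was -2.20. For IGFBP6 the value was -0.99, for IGFBP3 -0.03 and -0.80, and for INSR -0.29 and -0.49, each naming the brighter probe set first.

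The other genes of these pathways were taken from 7 lists holding 73 genes, of which 36 were measured in endometrium. Between the days, 6 rose and 10 fell in SE and 6 rose and 6 fell in HE, 44.4% and 33.3% of the 36, where 50.1% and 45% of all probe sets were called. The 12 called in HE were all called in SE in the same direction; both comparisons come from 1 fit. The median difference over the 36 genes was -0.07 in SE and -0.16 in HE, near the 0.009 and -0.03 of all probe sets. In the SE over HE comparisons of either day and in the test between them, 0 of the 36 passed limma's test; 3 had an unadjusted p under 0.05 on day 0, 0 on day 7 and 1 in the test between them.

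The ligands of the system were mostly below the filter in the brushings. IGF1 never exceeded 2.90 on its 4 probe sets, and IGF1R, the receptor for both growth factors, never exceeded 2.13. Of 4 IGF2 probe sets 1 passed the filter, through 4.26 in day 7 SE replicate 2 and 4.36 in day 7 HE replicate 2, all other arrays lying below it. IGF2R, which takes up and degrades IGF2, was above the filter in every pool, at 9.24 ± 0.28 on day 7 and 7.97 ± 1.11 on day 0 in SE (SD, n = 3 each) and at 9.42 ± 0.37 (n = 2) and 7.80 ± 0.19 (n = 3) in HE. It rose by 1.27 in SE (limma adjusted p = 0.0386) and by 1.63 in HE (adjusted p = 0.0235). In SE its days overlapped through day 0 replicate 2, and the call was lost in both classes without the filter and when single pools were left out; without day 0 SE replicate 3 the SE value was 0.71.

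Of the 7 other binding protein genes listed, IGFBP1, IGFBP2 and IGFBP5 stayed at or below 3.06 in endometrium, and IGFBP4 and IGFBP7 were measured. IGFBP4 fell with IGFBP3 and IGFBP6, to 4.39 ± 0.24 on day 7 against 7.44 ± 0.38 on day 0 in SE and to 4.78 ± 0.68 against 7.01 ± 0.23 in HE. Its differences were -3.04 in SE (limma adjusted p = 1.31e-05) and -2.23 in HE (adjusted p = 2.79e-04). IGFBP7, a relative with low affinity for IGFs, read 5.24 to 7.76 over all pools with overlapping groups. It was highest in the same day 7 pools as IGFBP3, with 7.70, 6.70 and 5.78 in SE and 5.28 and 7.76 in HE.

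Proteases that cut binding proteins, and their inhibitors, gave 2 measured genes of 6, and both fell in each class. Of all probe sets 24.1% were called lower in SE and 23.2% in HE. HTRA1, a secreted serine protease that cleaves IGF binding proteins, was at 9.23 ± 0.16 on day 7 and 13.16 ± 0.21 on day 0 in SE and at 9.04 ± 0.42 and 13.19 ± 0.15 in HE, differences of -3.93 (limma adjusted p = 2.72e-07) and -4.15 (adjusted p = 6.15e-07). STC1, a stanniocalcin, which inhibits the binding protein protease PAPPA, was below the filter value on day 7, at 2.60 ± 0.06 against 5.65 ± 0.68 in SE and at 2.81 ± 0.28 against 7.05 ± 0.39 in HE, so that against the filter value it was at least 3.14-fold lower in SE (limma adjusted p = 2.94e-05) and at least 8.29-fold lower in HE (adjusted p = 1.02e-05). STC1 passed the filter through its day 0 arrays alone, so a difference between days was built into its passing. On day 0 it differed between SE and HE by -1.40, which did not pass (adjusted p = 0.434). PAPPA itself was never above the filter.

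Of 26 genes of insulin receptor signalling 14 were measured; 4 rose and 2 fell in SE and 4 rose in HE, 42.9% and 28.6% of the 14 and below the share of all probe sets, with medians of -0.03 and -0.06. RHEB, the small GTPase that activates mTORC1, rose by 1.81 in SE (limma adjusted p = 2.31e-06) and 1.77 in HE (adjusted p = 7.85e-06). TSC1, part of the complex that restrains RHEB, rose by 1.27 (adjusted p = 0.00609) and 1.69 (adjusted p = 0.00268). PTPN1, a phosphatase that turns off the insulin receptor, rose by 1.10 (adjusted p = 6.94e-04) and 0.85 (adjusted p = 0.00703). PIK3R2, a regulatory subunit of PI3 kinase, rose by 0.90 (adjusted p = 0.00980) and 0.80 (adjusted p = 0.0312). The HE call of PIK3R2 was lost when any one of 4 pools was left out, and that of PTPN1 without day 7 HE replicate 2.

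The company of ASCL2 was measured with 3 lists. Of the E proteins it can pair with and the ID proteins that block such pairs, 6 of 7 were measured and 0 passed limma's test in either class (1 in each had an unadjusted p under 0.05), with medians of 0.01 in SE and 0.14 in HE. Of 12 imprinted genes around the ASCL2 locus 6 were measured. In SE 2 fell, 33.3% of the 6, and in HE 0 passed, where 2 had an unadjusted p under 0.05. Beside both lists, 50.1% of all probe sets were called in SE and 45% in HE. PHLDA2, which restrains placental growth in mice, was below the filter value in all 3 day 7 SE pools, at 3.63, 3.48 and 3.50 against 6.52, 7.71 and 4.78 on day 0. Set against that value it was at least 5.05-fold lower in SE (limma adjusted p = 0.0110), and it did not pass in HE (adjusted p = 0.102), where means were 3.83 on day 7 and 5.67 on day 0. KCNQ1, a potassium channel gene, was below the filter value in all 5 day 7 pools, at least 2.18-fold lower in SE (limma adjusted p = 0.0351) and not called in HE (adjusted p = 0.383), and the SE call was lost without day 0 SE replicate 2. KCNQ1 passed the filter through day 0 arrays alone, so a difference between days was built into its passing. Whether PHLDA2 and KCNQ1 differed between SE and HE was tested as above, and neither passed.

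Of 11 Wnt target genes 5 were measured, of which 1 rose and 3 fell in each class (4 of 5, 80%, beside 50.1% of all probe sets in SE and 45% in HE), with medians of -2.19 in SE and -2.67 in HE. TCF7 and LEF1, transcription factors at the end of the Wnt pathway, fell in both classes, with differences of -4.21 (limma adjusted p = 3.29e-07) and -3.01 (adjusted p = 1.53e-04) in SE and -4.05 (adjusted p = 1.20e-06) and -3.97 (adjusted p = 6.85e-05) in HE. AXIN2, a feedback inhibitor of the pathway, fell by 2.19 in SE (adjusted p = 1.27e-04) and by 2.67 in HE (adjusted p = 9.77e-05). RNF43, a ligase that removes Wnt receptors, rose, with all day 0 pools under the filter value, by at least 1.95-fold in SE (adjusted p = 0.00414) and at least 2.15-fold in HE (adjusted p = 0.00313). It passed the filter through its day 7 arrays alone. A difference between days was thus built into its passing and into its place among the 4 of 5.

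**Figure D4:**
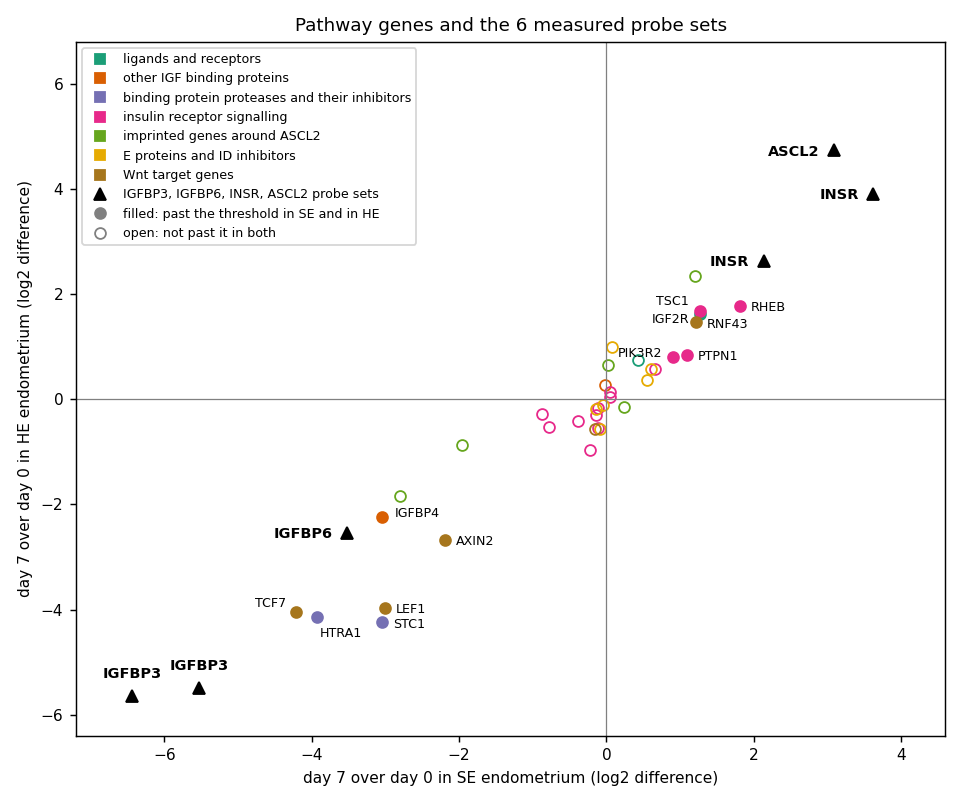
Day 7 over day 0 log2 differences of the 36 measured pathway genes in SE (horizontal) and HE (vertical), coloured by list, with the 6 probe sets of IGFBP3, IGFBP6, INSR and ASCL2 as triangles. Filled circles, labelled by gene, passed the test in both classes; IGFBP4, HTRA1, STC1, TCF7, LEF1 and AXIN2 lie on the side of the IGF binding proteins, and RHEB, TSC1, IGF2R, PTPN1, PIK3R2 and RNF43 on that of INSR and ASCL2.

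The genes beside these 4 on the chromosome were read as well. In the RefSeq gene table of assembly ARS-UCD2.0 the protein-coding genes next to ASCL2 are TSPAN32 and TH, followed by CD81 and INS. In endometrium TSPAN32 stayed at or below 3.78, TH at or below 1.82 and INS at or below 2.20. CD81, a widely expressed tetraspanin, differed by 0.02 in SE (limma adjusted p = 0.952) and by 0.66 in HE (adjusted p = 0.0518). IGFBP1, the next gene to IGFBP3, was never above the filter, and HUS1, on the other side, differed by 0.24 in SE (adjusted p = 0.462) and -0.16 in HE (adjusted p = 0.686). SPRYD3, next to IGFBP6, differed by 0.32 (adjusted p = 0.0997) and 0.37 (adjusted p = 0.103), and PEX11G, near INSR, by -0.40 (adjusted p = 0.126) and -0.52 (adjusted p = 0.0870).

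The genes whose signal followed each of the 4 most closely were sought among 8643 named and measured probe sets by Pearson's r over the 11 endometrium arrays, which share the step between days. For IGFBP3 they were LYZ2, a lysozyme (r = 0.989), PLPP3, a lipid phosphatase (0.989), and ADM, the peptide hormone adrenomedullin (0.988), and for IGFBP6 they were MARCKS (0.987), SNRNP200 (0.984) and ADGRE5 (0.980). For INSR they were BOC (0.996), DTNB (0.996) and MEPCE (0.994), and for ASCL2 they were IL1RAP, the accessory protein of the interleukin-1 receptor (0.982), SNTB2 (0.978) and PPM1K (0.975). After group means were subtracted, r was 0.908, 0.902 and 0.862 for the genes named for IGFBP3, 0.913, 0.956 and 0.800 for IGFBP6, 0.943, 0.874 and 0.824 for INSR and 0.614, 0.660 and 0.818 for ASCL2, in the order given. An r above 0.95 was common: 561 probe sets reached it with INSR, 235 with IGFBP3, 120 with ASCL2 and 48 with IGFBP6.

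In blastocysts 3 of the 9 probe sets passed the filter, both of IGFBP3 and 1 of INSR. These values are not set against endometrium, since the sources do not state whether both tissues were normalized together. IGFBP3 was above the filter in all 5 pools. Its brighter probe set read 9.62, 7.93 and 7.92 in blastocysts of SE donors and 7.92 and 7.18 in those of HE donors, and its dimmer one 7.58, 7.03 and 6.78 against 6.72 and 6.11. By the dimmer probe set the SE pools lay above the HE pools by a gap of 0.0610. By the brighter one SE replicate 3 and HE replicate 1 met at 7.92, SE replicate 1 stood highest and HE replicate 2 lowest. The differences were 0.94 (limma standard error 0.65, 95% interval -0.79 to 2.67, adjusted p = 0.632) and 0.72 (standard error 0.33, interval -0.16 to 1.60, adjusted p = 0.588). Without SE replicate 1 they were 0.38 and 0.49, and without HE replicate 2 0.57 and 0.41. In this comparison 12.4% of all probe sets had SE pools wholly above HE pools, and 0% (0 of 11014, with 1029 at an unadjusted p under 0.05) passed limma's test; of the 3 probe sets here 0 passed and 0 had an unadjusted p under 0.05.

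The brighter INSR probe set read 2.32, 4.71 and 4.14 in blastocysts of SE donors and 2.41 and 2.20 in those of HE donors. It was above the filter value in 2 SE pools, the other 3 pools lying near the lowest value on these arrays, 2.20, and the difference of 1.42 did not pass (limma standard error 0.77, 95% interval -0.64 to 3.49, adjusted p = 0.603), being 0.93 without SE replicate 2 and 2.12 without SE replicate 1. ASCL2 read 2.40, 2.76 and 2.40 in SE and 2.30 and 2.46 in HE, below the filter in all 5 pools. IGFBP6 read 2.71 in each of the 5 pools, and 34.2% of all probe sets likewise had a range under 0.01 over these pools.

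**Figure D5:**
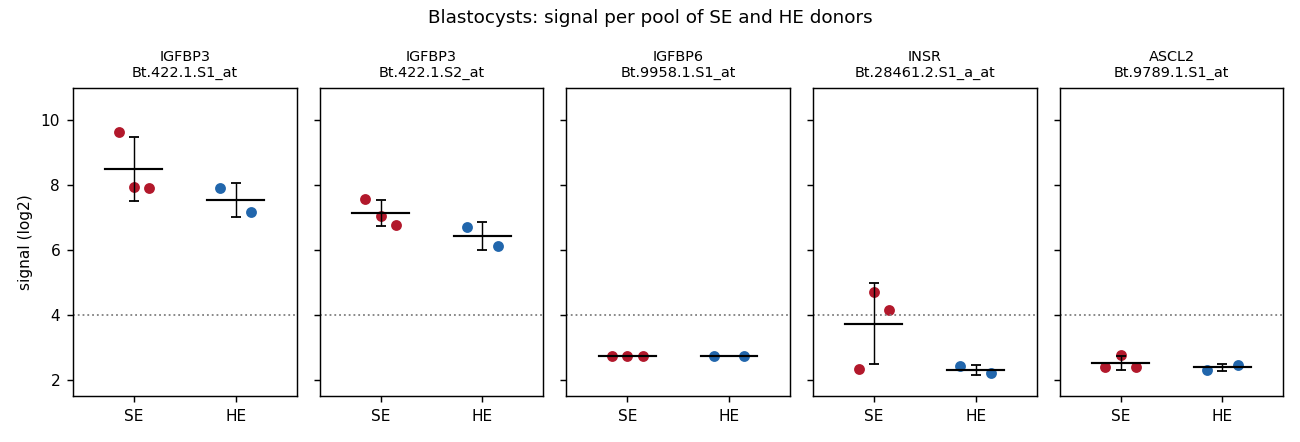
Signal (log2) of 5 of the 9 probe sets in each blastocyst pool of SE and HE donors, with points for pools, bars for means, whiskers for the SD and a dotted line at the filter value of 4. The IGFBP3 probe sets lie above the line in all 5 pools, INSR in 2 SE pools, and IGFBP6 and ASCL2 in none.

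Other members of the system in blastocysts were described by level. IGF2R was at 11.28 ± 0.11 in SE (SD, n = 3) and 11.23 ± 0.11 in HE (n = 2), and IGFBP2 was at 4.53 ± 0.30 and 4.31 ± 0.09. IGF1 and IGF1R stood at the lowest value of the arrays, 2.20, in all pools. In blastocysts the GAPDH control read higher at its 3' than at its 5' end, by 5.47 to 5.85 in SE and 4.97 to 5.11 in HE. In endometrium the largest such range was 0.03 to 0.58, in day 0 SE. The actin, EF1A, cyclophilin and EIF4E controls also had larger 3' minus 5' differences in blastocysts. A low blastocyst reading of any gene here therefore need not mean little transcript, which was not tested. Of the 25 listed pathway genes measured in blastocysts, 0 passed limma's test between SE and HE and 0 had an unadjusted p under 0.05.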

How the data were processed

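Values are the log2 signals that the authors deposited, 1 per probe set and array; per the submitters' processing notes GCRMA and limma were used, neither with a version. Scanned images were not used here. Per the labels' protocols, 15 ng of RNA per pool were amplified in 2 rounds. Array medians were 4.18 to 4.30 in endometrium (12303 to 12471 probe sets above 4) and 3.08 to 3.12 in blastocysts (10823 to 10877). The table held 24128 probe sets; 112 controls were left out. Gene names came from the platform annotation; the gene IDs of all 9 probe sets matched RefSeq under the same symbols.

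Group means were fitted with limma 3.58.1 in R 4.3.3, the 11 endometrium arrays in 1 fit and the 5 blastocyst arrays in another, with empirical Bayes, two-sided tests and Benjamini-Hochberg adjustment over all kept probe sets (13421 and 11014), threshold 0.05. The fits were tested on simulated data. The number of arrays limits precision. Tables and plots used Python 3.11.15 and matplotlib 3.10.9. Each list gene was read from its kept probe set with the highest mean; named list genes are at most 4 per list and comparison past the threshold, by test statistic, and where none passed only counts are given. Genes that follow a pattern are the 3 with the highest r. The 4 genes and the lists were chosen with earlier results of these data known. Neighbouring genes and gene IDs were read from the RefSeq gene table of assembly ARS-UCD2.0. The build of the array annotation is not named, so coordinates are not given, and genome or protein sequences were not used here.

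Alternatives were no filter, a filter at 5, an intensity trend, array weights, a further quantile normalization, the replicate number as a block, only the arrays compared, gene means over probe sets, and leaving out each pool.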

Additional observations from a re-analysis of the deposited data

How the results depend on the processing

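The 6 probe sets and 4 genes called in each day comparison were called, in the same direction, under every alternative run, and 0 were called in the other comparisons under any. The largest adjusted p (limma) of a day difference was 0.0167, for IGFBP6 in HE. Over all probe sets the number called ran from 5807 to 7134 for day 7 over day 0 in SE, 4378 to 6395 in HE, 0 to 11 for SE over HE on day 0, 0 to 10 on day 7, 0 to 2 for the difference of the day changes and stayed at 0 in blastocysts. Leaving out single pools moved the uncalled ASCL2 values to between 0.49 and 1.29 for SE over HE on day 0 and between -1.28 and -0.18 on day 7, and in blastocysts moved IGFBP3 to between 0.38 and 1.31 (brighter) and 0.41 and 1.02 (dimmer) and INSR to between 0.93 and 2.12. Uncalled values turned sign as follows, and the cause was not tested. For SE over HE on day 0, the brighter INSR probe set was -0.0434 with array weights and -0.10 to 0.12 when single pools were left out. For SE over HE on day 7, leaving out single pools gave -0.85 to 1.45 and -1.33 to 0.70 for IGFBP3 (brighter and dimmer probe set), -0.73 to 0.22 and -1.09 to 0.21 for INSR and -0.61 to 0.35 for IGFBP6. For the difference of the day changes it gave -1.18 to 1.12 and -1.82 to 0.22 for IGFBP3 and -0.77 to 0.18 and -1.15 to 0.16 for INSR, and the brighter IGFBP3 probe set was 0.0950 with only replicates 1 and 2 of each group.

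Replicate numbers did not pair the pools: of 15 same-numbered pairs of endometrium arrays 2 had deviations correlated above 0.1 (range -0.27 to 0.24), and of 2 blastocyst pairs 1 did. With the replicate number as a block the 6 probe sets were again called in both day comparisons and 0 in the others, and the difference of the day changes of the brighter IGFBP3 probe set was 0.12; PIK3R2 in HE (0.81) was no longer called.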
